A study of Bos indicus with 8 samples.

Results

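RAB GTPases, the switches of membrane traffic, and their regulators were examined in bovine cumulus cells cultured with or without adenosine. Every such gene with a probe on a bovine array was taken by symbol: RAB followed by a number, the RAB3, RAB11FIP, RABGAP, RABGEF, RABEP, RABIF and RABL names, and TBC1D followed by a number. They came to 172 probes of 102 genes, among 43794 probes and 15229 gene symbols on the array. Of these, 148 probes of 97 genes passed a detection filter and were tested. The 5 genes with no probe above that filter were RAB36, RAB39, RAB11FIP1, TBC1D2 and TBC1D22A. The choice used symbols and no measured value, though earlier results of these data were known. Symbols are those of the array's annotation, so that the gene now called RAB29 appears as RAB7L1, and IFT27 and IFT22 as RABL4 and RABL5.

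RAB proteins are the largest family of small GTPases and act as switches of membrane traffic, each bound to its own set of organelles. A RAB is loaded with GTP by an exchange factor, recruits effectors that move, tether or fuse vesicles, and is switched off by a GTPase-activating protein, most of which carry a TBC domain. Between rounds it is held in the cytosol by a dissociation inhibitor and returned to membranes, where prenyl tails anchor it. Cumulus cells surround the oocyte in the ovarian follicle, take up and recycle receptors for gonadotropins and growth factors, and secrete the components of the expanding matrix, all of which depend on such traffic.

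The study asked how adenosine alters gene expression in Bos indicus cumulus cells during culture. Complexes of oocyte and cumulus cells from follicles of 3 to 6 mm of slaughterhouse ovaries were cultured for 6 h with 3 mM adenosine or without it, and both groups had recombinant human FSH (0.5 µg/ml), 17ß-oestradiol (1 µg/ml), gentamicin, pyruvic acid (0.2 mM) and fetal bovine serum (10%) in a Tyrode lactate medium buffered with HEPES. Cumulus RNA from 4 adenosine pools and 4 control pools, with a stated number per pool of 10, was amplified, labelled with Cy3 or Cy5 and compared on 8 arrays in which each pair of pools was hybridised again with the dyes exchanged. The labels do not say what was counted in a pool or how many animals it drew on. A p-value here sets a difference against the scatter of these 4 pairs, which the test draws towards the scatter of all kept probes. The scatter among pairs may be partly technical. The age and strain of the animals stay unnamed in the labels. Precision is bounded by how few arrays there were.

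Of the markers of the labelled cell type, 12 of 12 cumulus and granulosa genes were measured. Measured means above the detection filter, which dim probes also pass, such as FOXL2 and NR5A1 at mean control levels of 6.17 and 6.42. Of the 12 genes 3 rose with adenosine (INHA at 0.91, FSHR at 0.72 and AMH at 0.49) and 2 fell (TNFAIP6 at -3.31 and INHBA at -0.98). The log2 of their summed level was 15.2 to 15.3 in control pools and 14.6 to 15.1 in adenosine pools. INHBA, the largest term of this sum, had mean levels of 14.76 in control and 13.78 in adenosine pools. Of 10 oocyte genes 9 were measured and 0 passed, with summed levels of 9.83 to 11.2 in control and 9.85 to 9.97 in adenosine pools. Theca and stroma genes were measured for 5 of 8 (1 rose and 2 fell, 10.72 to 11.96 against 9.87 to 10.2). The 2 that fell were PDGFRA, at -2.15 from a mean control level of 10.85, and DCN at -0.81. COL1A1 rose by 0.14. Endothelial genes were measured for 3 of 5 (0 rose and 1 fell, 8.77 to 8.98 against 8.51 to 8.54), with PECAM1 at or below the detection limit in every channel. Leukocyte genes were measured for 4 of 6 (0 rose and 1 fell, 9.29 to 10.8 against 9.27 to 10.5) and those of red blood cells for 2 of 3 (HBM at or below the limit in every channel, 0 changed, 7.82 to 7.92 against 7.82 to 8.02). KDR, of endothelium, exceeded the detection limit in 8 of 8 control and 0 of 8 adenosine channel values. The part of these marker levels in the RAB results was not tested. One array stood apart: on the array of pair 3 with adenosine in Cy3, 41.3% to 45.4% of probes exceeded the detection limit, against 71.1% to 87.4% on the other 7.

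Of the 97 measured genes 48 passed the test (limma, Benjamini-Hochberg adjusted p below 0.05 over all 31948 kept probes), which is 49.5% where 42.5% of all 12320 measured genes passed. Each gene is represented by its brightest kept probe, and a log2 ratio is that of adenosine over control, averaged over the 2 arrays of a pair of pools and then over the 4 pairs. There were 25 rises (25.8%, against 21.7% of all genes) and 23 falls (23.7%, against 20.8%), and 49 genes did not pass. The family therefore did not move one way: its median log2 ratio was 0.0079 and that of all genes 0.0034. In all 48 the 4 pairs had the same sign, which choosing genes by a test of the mean of those pairs largely brings about. Of the genes that passed, 6 rose more than 2-fold (6.19% of the 97, against 3.6% of all genes) and 11 fell more than 2-fold (11.3%, against 7.65%). In bulk RNA, fewer cells of a type and less RNA per cell cannot be told apart.

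The split depended on scaling, and the count on 1 pair of pools. With arrays centred on their median in place of loess, 18 genes rose and 33 fell, where 42.8% of all measured genes passed. The median log2 ratio there was -0.0256 for the 97 genes and -0.0085 for all genes, whose split into rises and falls is not given here. Without pair 4 the count was 30, with 15 rises and 15 falls, where 25.1% of all measured genes passed. In the fit that ignores which pools were paired 34 genes passed, where 27.5% of all genes did. With pair 3 taken from its other array alone the count was 48, with 24 rises and 24 falls, where 39.9% of all genes passed. In the reported fit 17 of 57 GTPases rose (29.8%) and 13 fell (22.8%). Among the regulators 8 of 40 rose (20%) and 10 fell (25%), against 21.7% and 20.8% of all measured genes. In 34 of the 48 the levels of the adenosine pools and the control pools did not overlap, 17 in each direction. This is 35.1% of the 97 genes, against 31.1% of all measured genes (14.3% above and 16.8% below the control pools). With no offset in the background correction 16 of the 48 genes had a ratio more than 1.5 times as large.

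**Figure D1:**
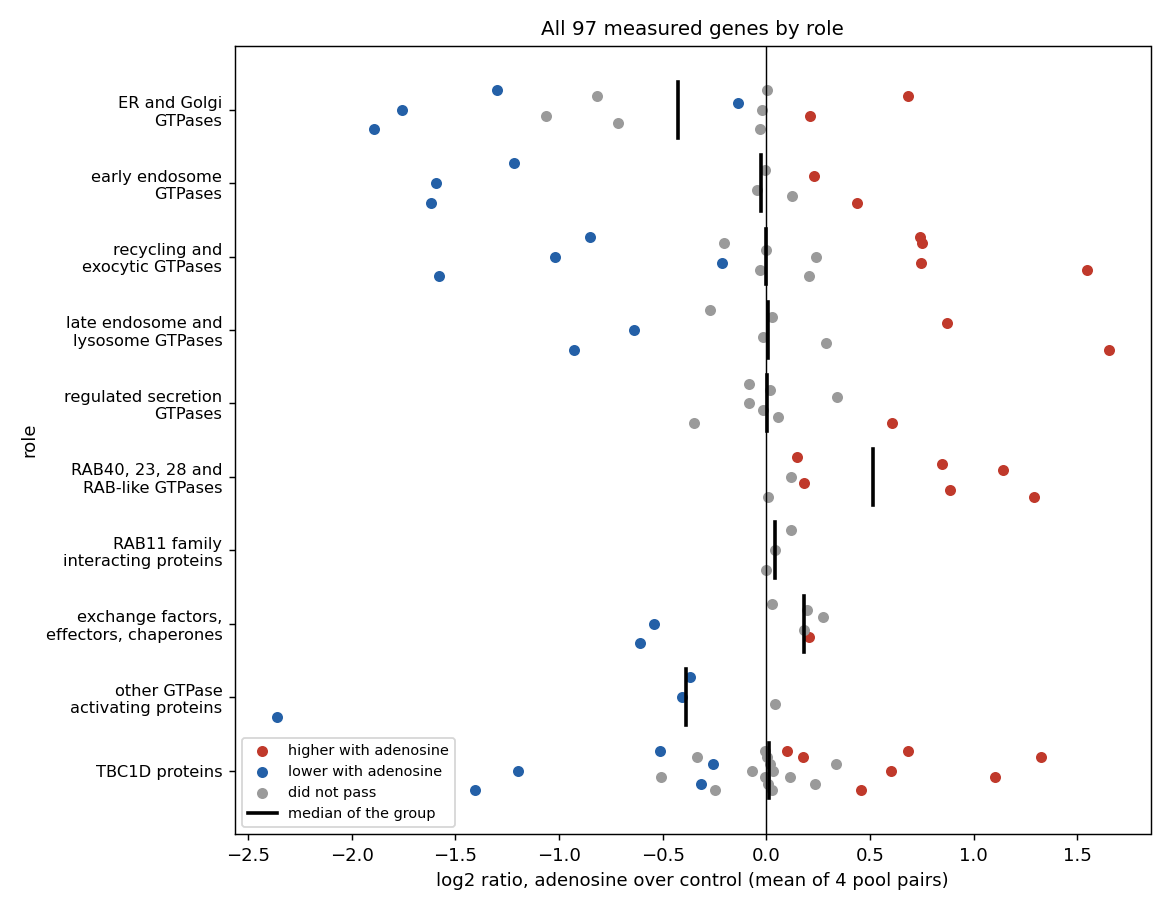
Each point is 1 of the 97 measured genes at its mean log2 ratio of adenosine over control (horizontal axis, n = 4 pool pairs), sorted by role (vertical axis), in red where it was higher and blue where it was lower at adjusted p below 0.05, and in grey where it did not pass. Black bars are group medians: that of the ER and Golgi GTPases lies at -0.43, that of the RAB40, RAB23, RAB28 and RAB-like GTPases at 0.51, and RABGAP1L at -2.36 is the point farthest to the left.

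GTPases of the endoplasmic reticulum and Golgi included 3 of the deepest falls of the family. Falls were found for 4 of the 12 measured and rises for 2, while 6 did not pass, and the median log2 ratio was -0.43. Falls were thus 33.3% and rises 16.7%, against 20.8% and 21.7% of all measured genes. RAB39B, which acts in neurons and in autophagy, had log2 levels of 8.91, 9.29, 8.50 and 8.62 in the control pools and 6.90, 7.27, 6.74 and 6.82 in the adenosine pools. Every adenosine pool lay below every control pool, and the 4 pairs were close to each other. The log2 ratio was -1.90 ± 0.14 (mean ± SD, n = 4 pairs), 3.72-fold lower (limma adjusted p = 0.00047).

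RAB1A, the GTPase of vesicle transport from the endoplasmic reticulum to the Golgi, was among the brightest of the family. Its log2 levels were 12.28, 13.02, 12.82 and 12.71 in the control pools and 10.95, 10.64, 11.26 and 10.96 in the adenosine pools. The groups did not overlap, and pair 2 moved farthest. The ratio was -1.76 ± 0.45, 3.38-fold lower (adjusted p = 0.00431). RAB2A, which acts in Golgi traffic and in fusion with lysosomes, had log2 levels of 11.78, 11.61, 12.43 and 12.27 in the control pools and 10.65, 10.28, 11.13 and 10.83 in the adenosine pools. Again all adenosine pools were below all control pools, although control pools 3 and 4 were higher than 1 and 2. Its ratio was -1.30 ± 0.13, 2.46-fold lower (adjusted p = 0.000717). A second RAB2A probe of nearly the same brightness gave -1.03 ± 0.09.

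RAB18, a GTPase of the endoplasmic reticulum and of lipid droplets, was the gene nearest to the threshold on its outer side. Its pair ratios were -0.46, -2.004, -0.57 and -1.22, all below 0 but with pair 2 more than 4 times as deep as pair 1, and it did not pass (-1.06 ± 0.71, adjusted p = 0.0531). A second RAB18 probe, dimmer, repeated the order of the pairs with -0.44, -1.74, -0.46 and -1.18, and the third and dimmest had a mean of -0.05 ± 0.07. RAB18 passed in 9 of 16 alternative settings. RAB30, a Golgi GTPase, and RAB33B, which acts in Golgi traffic and autophagy, likewise had 4 negative pairs without passing. They gave -0.82 ± 0.56 (adjusted p = 0.0563) and -0.72 ± 0.51 (adjusted p = 0.0622). These and the further members outside the lists of largest change and brightest genes are named here after their values were seen.

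Of the remaining 6 members of the group 3 passed. RAB34, linked to the formation of cilia, rose with 0.07, 0.75, 0.98 and 0.93 in the 4 pairs (0.68 ± 0.42, adjusted p = 0.0432), with pair 1 near 0, and it did not pass without pair 2, 3 or 4, with median centring (0.51, adjusted p = 0.0967), with no detection filter or with adenosine in Cy5 alone. RAB1B rose by 0.21 ± 0.10 and did not pass without pair 2, 3 or 4 or with median centring. RAB2B fell by 0.14 ± 0.03 and passed in 9 of 15 alternatives. The others that did not pass were RAB6A, RAB6B and RAB19, with ratios between -0.03 and 0.00.

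Among the 8 early endosome GTPases 3 fell (37.5%), 2 rose (25%) and 3 did not pass, where 20.8% of all measured genes fell and 21.7% rose. RAB21, which carries integrins inward, had log2 levels of 10.56, 10.65, 10.31 and 10.26 in the control pools and 8.77, 8.91, 8.91 and 8.73 in the adenosine pools. The groups were separated by more than 1 log2 unit in each pair. Its ratio was -1.62 ± 0.18, 3.06-fold lower (adjusted p = 0.000902). RAB5A, the main GTPase of early endosome fusion, had log2 levels of 10.32, 10.86, 10.15 and 10.29 in the control pools and 9.46, 9.09, 9.32 and 8.87 in the adenosine pools. All adenosine pools lay below all control pools, and pairs 2 and 4 moved farther than pairs 1 and 3. The ratio was -1.22 ± 0.45, 2.33-fold lower (adjusted p = 0.011).

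RAB31, a relative of RAB5A that links the trans-Golgi network to endosomes, showed the opposite order of pairs. Its log2 levels were 9.41, 7.84, 9.19 and 8.49 in the control pools and 7.25, 7.05, 7.06 and 7.18 in the adenosine pools, so the control pools varied far more than the adenosine pools. The groups did not overlap, and the ratio was -1.60 ± 0.66, 3.02-fold lower (adjusted p = 0.0145). A dimmer RAB31 probe had -0.25 and did not pass, and the mean over both was -0.92. Neither gene passed without pair 4, with adjusted p = 0.0613 for RAB5A and 0.0607 for RAB31. RAB20, a GTPase of phagosomes, rose with 0.52, 0.51, 0.34 and 0.39 (0.44 ± 0.09, adjusted p = 0.00318), and RAB5B rose by 0.23 ± 0.06 (adjusted p = 0.00795). RAB5C, RAB22A and RAB24 did not pass, with ratios between -0.04 and 0.12.

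The 13 GTPases of recycling and exocytic traffic split evenly, with 4 falls, 4 rises and 5 that did not pass. Each direction held 30.8%, where 20.8% of all measured genes fell and 21.7% rose. RAB11A, the GTPase of the recycling endosome, had log2 levels of 12.44, 12.84, 12.37 and 12.39 in the control pools and 10.95, 10.93, 10.89 and 10.96 in the adenosine pools. The adenosine pools lay within 0.1 log2 units of each other, and control pool 2 stood above the other control pools. Its ratio was -1.58 ± 0.23, 2.99-fold lower (adjusted p = 0.0013), from -1.82 with adenosine in Cy5 and -1.34 with it in Cy3. RAB35, of rapid endosomal recycling and cell division, had log2 levels of 7.88, 7.75, 7.84 and 7.42 in the control pools and 6.84, 6.64, 6.71 and 6.62 in the adenosine pools. The groups did not overlap, and the ratio was -1.02 ± 0.15, 2.03-fold lower (adjusted p = 0.00151). With no offset in the background correction it was -1.67. Only 1 of 3 kept RAB35 probes passed, and the mean over the 3 was -0.38.

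RAB15, a brake on the endocytosis of receptors, rose most in this group. It had log2 levels of 8.78, 9.33, 8.73 and 9.07 in the control pools and 10.54, 10.57, 10.33 and 10.65 in the adenosine pools, and the lowest adenosine pool was 1 log2 unit above the highest control pool. The ratio was 1.55 ± 0.22, 2.92-fold higher (adjusted p = 0.00129). A dimmer RAB15 probe had 0.03 ± 0.04, and the mean over both probes was 0.79. RAB11B, the close relative of RAB11A, had log2 levels of 10.53, 10.87, 10.54 and 10.65 in the control pools and 11.41, 11.39, 11.34 and 11.43 in the adenosine pools. Here too the adenosine pools were near to each other and control pool 2 was the highest, but the direction was upward, at 0.74 ± 0.16 and 1.67-fold (adjusted p = 0.00299).

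The RAB4 genes, whose products drive fast recycling to the plasma membrane, rose together. RAB4A had log2 levels of 7.45, 7.35, 7.57 and 7.64 in the control pools and 7.87, 7.87, 8.48 and 8.75 in the adenosine pools, with adenosine pools 3 and 4 clearly higher than 1 and 2 (0.74 ± 0.32, adjusted p = 0.0172). It did not pass without pair 3 (adjusted p = 0.0635) or pair 4 (adjusted p = 0.0531). RAB4B had log2 levels of 8.47, 8.63, 7.82 and 7.88 in the control pools and 9.29, 9.38, 8.50 and 8.63 in the adenosine pools. Here the groups overlapped, as pools 1 and 2 were higher than 3 and 4 in both, while each pair rose by nearly the same amount (0.75 ± 0.06, adjusted p = 0.000711). RAB4B did not pass in the fit that ignores which pools were paired (adjusted p = 0.102).

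RAB10, which carries transporters and receptors to the plasma membrane, fell with -0.53, -1.04, -0.86 and -0.98 in the 4 pairs (-0.85 ± 0.23, adjusted p = 0.00493), again with overlapping levels. RAB8A, of exocytic and ciliary traffic, fell by 0.22 ± 0.07 (adjusted p = 0.0128) and passed in 10 of 16 alternatives. RAB14, of traffic between Golgi and endosomes, had the brightest probe of the family, with log2 levels of 13.02, 13.45, 13.28 and 13.23 in the control pools and 12.86, 12.91, 13.10 and 13.27 in the adenosine pools. Its groups overlapped and it did not pass (-0.21 ± 0.24, adjusted p = 0.194). RAB8B, RAB12, RAB13 and RAB25 did not pass either, with ratios between -0.03 and 0.24.

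**Figure D2:**
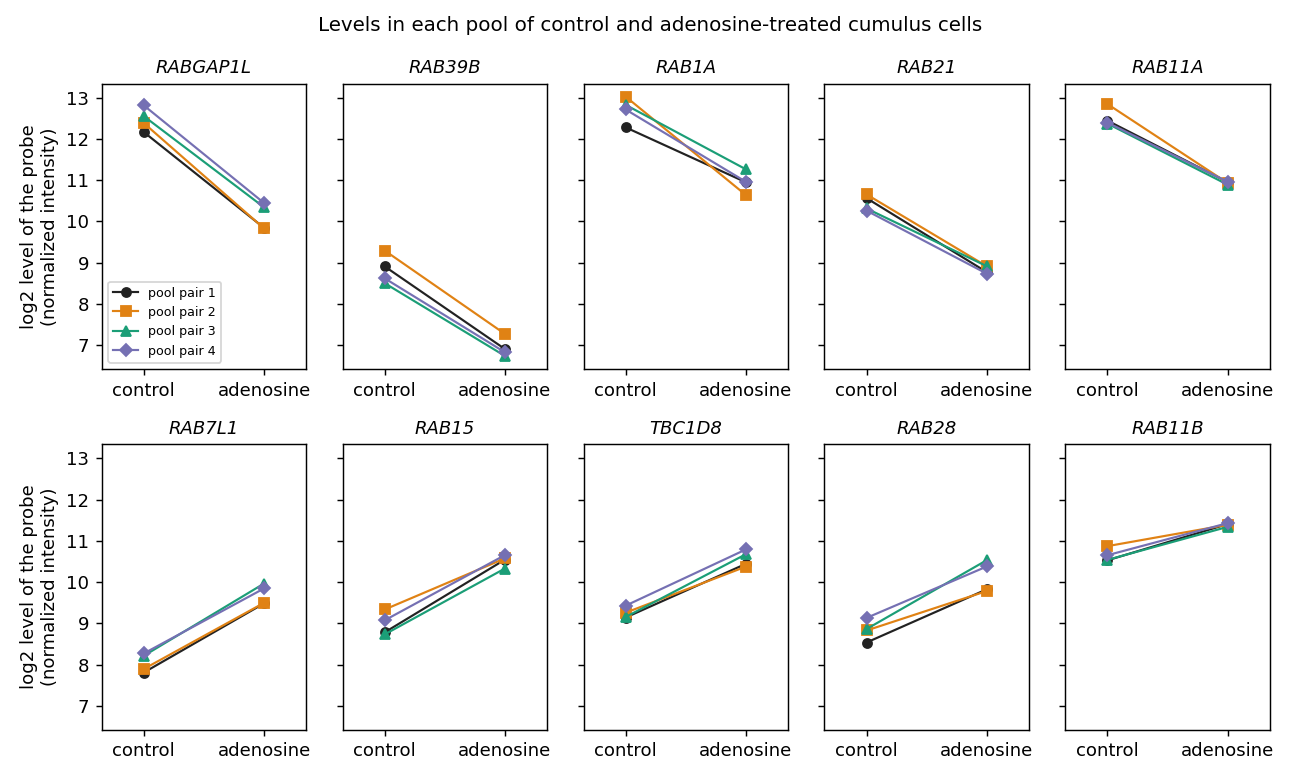
Log2 level (vertical axis, normalized intensity of the probe) in each control and adenosine pool for 5 genes that fell (top row) and 5 that rose (bottom row), with a line joining the pools compared on the same arrays. In all 10 the adenosine pools lie wholly on 1 side of the control pools. Levels can be compared within a gene's panel, not between genes.

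Of 8 GTPases of late endosomes, lysosomes and related organelles 2 rose, 2 fell and 4 did not pass. Each direction held 25%, where 21.7% of all measured genes rose and 20.8% fell. RAB7L1, known in human cells as a partner of the kinase LRRK2 at lysosomes and the trans-Golgi network, had the largest rise of all 97 genes. Its log2 levels were 7.81, 7.89, 8.21 and 8.27 in the control pools and 9.48, 9.50, 9.96 and 9.84 in the adenosine pools. The pools did not overlap and the 4 pairs agreed closely, at 1.65 ± 0.08, 3.14-fold higher (adjusted p = 0.000317). RAB38, of pigment and lysosome-related organelles, had pair ratios of 0.32, 1.09, 1.23 and 0.85 and overlapping levels (0.87 ± 0.40, adjusted p = 0.0194). It did not pass without pair 2, 3 or 4 (adjusted p = 0.0702, 0.0591 and 0.0859), or with median centring (adjusted p = 0.079).

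RAB7A, the central GTPase of late endosomes and lysosomes, had log2 levels of 7.76, 8.24, 8.02 and 7.95 in the control pools and 7.32, 7.42, 7.36 and 7.33 in the adenosine pools. The groups did not overlap and the fall was smaller than those above, at -0.64 ± 0.16, 1.56-fold (adjusted p = 0.00425). RAB9A, which returns receptors from late endosomes to the Golgi, had log2 levels of 9.57, 9.61, 8.65 and 8.84 in the control pools and 9.04, 8.09, 8.31 and 7.50 in the adenosine pools. Pairs 2 and 4 fell far more than pairs 1 and 3, and the groups overlapped. It was the gene nearest to the threshold on its inner side (-0.93 ± 0.58, adjusted p = 0.045), and it did not pass without pair 1, 2 or 4 (adjusted p = 0.0771, 0.113 and 0.162). It also did not pass with pair 3 taken from its other array alone (adjusted p = 0.0615). RAB32, of melanosomes and mitochondria, was among the 4 brightest genes and had pair ratios of 0.53, -0.19, 0.35 and 0.46, with pair 2 opposite to the rest (0.29 ± 0.33, adjusted p = 0.182). Its ratio was -0.04 with median centring, and it passed without pair 2 (0.45, adjusted p = 0.0127). RAB7B, RAB9B and RAB42 did not pass, with ratios between -0.27 and 0.03.

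The GTPases of regulated secretion, which dock and prime secretory vesicles, showed few changes. Of 8 measured 1 rose, 0 fell and 7 did not pass, so that 12.5% passed, against 42.5% of all measured genes. RAB26, of secretory granules, rose in all pairs with 0.50, 0.56, 0.65 and 0.72, and its groups did not overlap (0.61 ± 0.10, 1.52-fold, adjusted p = 0.00188). RAB3A, RAB3B, RAB3C, RAB3D and RAB37 lay between -0.09 and 0.06. RAB27A and RAB27B had mean ratios of -0.35 and 0.34 with unequal pairs, and neither passed on its brightest probe. The pairs were -0.29, -0.09, -0.81 and -0.20 for RAB27A and 0.69, -0.09, 0.58 and 0.19 for RAB27B. Both dimmer RAB27A probes passed as lower, and the mean over its kept probes was -0.27 (adjusted p = 0.0169). Most probes of this group were dim, with a median log2 brightness of 6.62 against 7.61 for all 97 genes. Under a log2 brightness of 7, 21.1% of all measured genes passed, so the share of 42.5% is not a like measure for this group.

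In the group of RAB40, RAB23, RAB28 and RAB-like GTPases there were 6 rises among 8 measured genes and 0 falls. Rises were 75% of this small group, against 21.7% of all measured genes, of which 20.8% fell. The group had a median log2 ratio of 0.51. RAB28, a GTPase associated with cilia, had log2 levels of 8.53, 8.83, 8.86 and 9.13 in the control pools and 9.82, 9.78, 10.53 and 10.38 in the adenosine pools. All adenosine pools were above all control pools, and the ratio was 1.29 ± 0.29, 2.45-fold higher (adjusted p = 0.00328). RABL2B, a RAB-like GTPase that triggers entry of transport trains into cilia in mammalian cells, had log2 levels of 9.61, 8.85, 9.41 and 9.51 in the control pools and 10.28, 10.28, 10.55 and 10.83 in the adenosine pools. The groups did not overlap, pair 1 moved least, and the ratio was 1.14 ± 0.34, 2.2-fold higher (adjusted p = 0.00604). A dimmer RABL2B probe had 0.07 ± 0.06, and the mean over both was 0.61.

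RABL4 and RABL5 encode subunits of the intraflagellar transport machinery of cilia. RABL4 had log2 levels of 7.63, 7.71, 7.57 and 7.46 in the control pools and 8.48, 8.63, 8.20 and 8.60 in the adenosine pools, without overlap (0.88 ± 0.21, 1.85-fold higher, adjusted p = 0.00389). A dimmer RABL4 probe had 0.07 and did not pass, and the mean over both was 0.48. RABL5 had log2 levels of 7.74, 7.59, 7.50 and 7.61 in the control pools and 8.43, 8.37, 8.48 and 8.55 in the adenosine pools, also without overlap (0.85 ± 0.14, 1.8-fold higher, adjusted p = 0.00176). RAB28, RABL2B, RABL4 and RABL5 passed in all 16 alternatives. RAB40C, which joins a ubiquitin ligase, and RABL3 rose by small amounts, 0.15 ± 0.02 and 0.18 ± 0.09. RABL3 did not pass when any 1 pair was left out, and RAB40C had 0.28 with adenosine in Cy5 and 0.02 with it in Cy3. RAB23, an inhibitor of hedgehog signalling, and RAB40B did not pass, at 0.01 and 0.12.

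**Figure D3:**
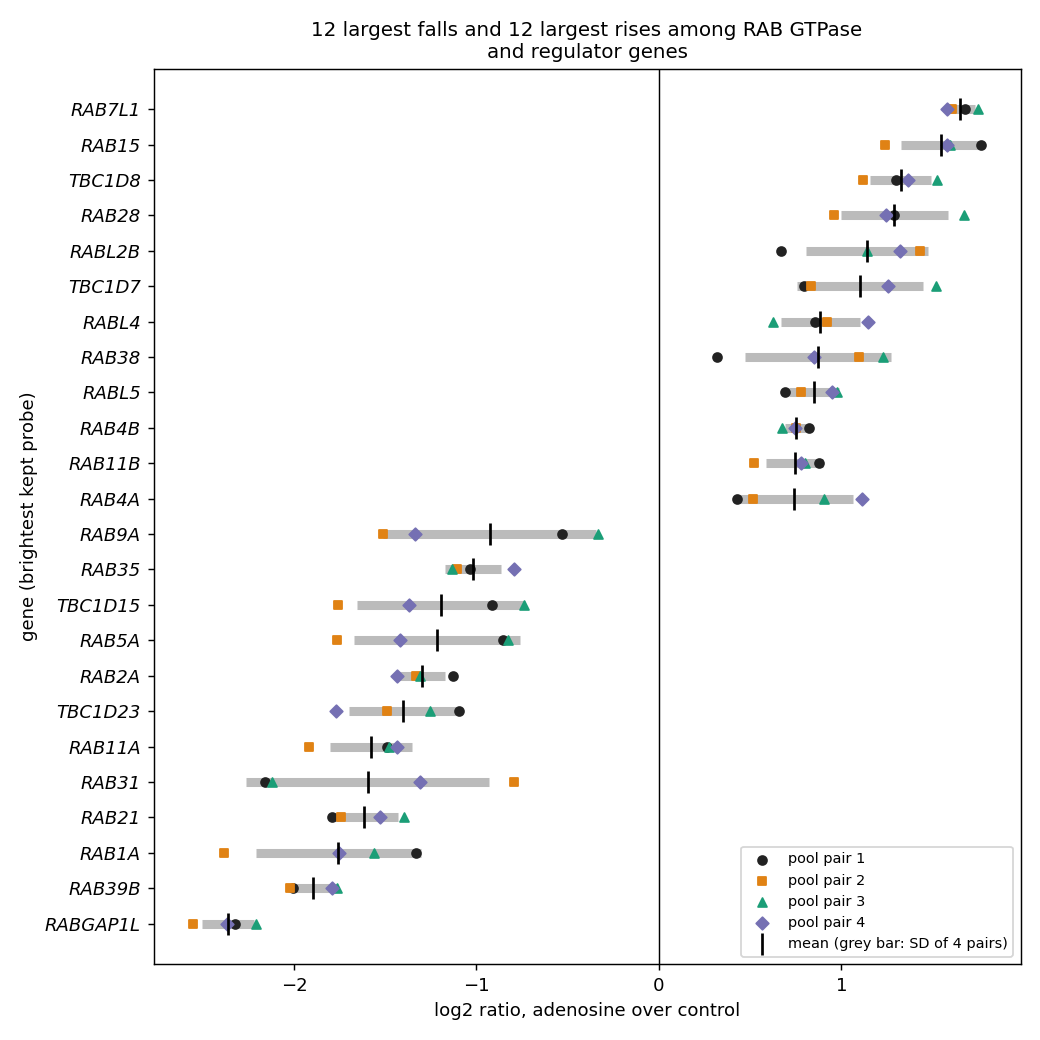
Log2 ratio of adenosine over control (horizontal axis) in each of the 4 pool pairs, with the mean as a black tick and the SD as a grey bar, for the 12 genes that fell most and the 12 that rose most among those that passed. RABGAP1L, RAB39B, RAB7L1 and RAB4B have narrow bars, while RAB31 and RAB9A spread from -2.16 to -0.79 and from -1.51 to -0.33.

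Regulators outside the TBC1D family included the deepest fall of the 97 genes. RABGAP1L, a GTPase-activating protein of endosomal RABs, had log2 levels of 12.16, 12.38, 12.55 and 12.81 in the control pools and 9.84, 9.83, 10.34 and 10.44 in the adenosine pools. The groups lay far apart, and the ratio was -2.36 ± 0.14, 5.14-fold lower (adjusted p = 0.000363). RABGAP1, its close relative, had unequal pair ratios of 0.02, -0.55, 0.68 and 0.01 and did not pass (0.04 ± 0.50, adjusted p = 0.898). RAB3GAP1 and RAB3GAP2, the subunits of a complex that switches off RAB3 and loads RAB18, both fell, by 0.41 ± 0.18 and by 0.37 ± 0.06 (adjusted p = 0.018 and 0.00283). RAB3GAP1 did not pass without pair 2 or 3. In this group of 4 activating proteins 3 fell and 0 rose, which is 75% lower, against 20.8% of all measured genes. Of the 26 measured TBC1D genes 19.2% fell and 26.9% rose.

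Of 7 exchange factors, effectors and chaperones 2 fell (28.6%), 1 rose (14.3%) and 4 did not pass, where 20.8% of all measured genes fell and 21.7% rose. The 2 that fell are partners that act together on RAB5 at early endosomes. RABEP1, the effector rabaptin-5, had log2 levels of 7.63, 7.59, 7.65 and 7.60 in the control pools and 7.10, 7.03, 7.10 and 7.08 in the adenosine pools, a small fall with nearly equal pairs, at -0.54 ± 0.02 (adjusted p = 0.000645). RABGEF1, the exchange factor rabex-5, had pair ratios of -0.59, -0.98, -0.28 and -0.58 (-0.61 ± 0.29, adjusted p = 0.021) and did not pass without pair 1 or 4. RABIF, a chaperone of nucleotide-free RABs, rose by 0.21 ± 0.06 and did not pass without pair 4 or with median centring. RABEP2, RABEPK, RAB3IP and RAB3IL1 did not pass, with ratios between 0.03 and 0.27. The 3 measured RAB11 family interacting proteins, adaptors that couple RAB11 to motors, did not pass at 0.00 for RAB11FIP4, 0.04 for RAB11FIP5 and 0.12 for RAB11FIP2, all on dim probes.

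The 26 measured TBC1D genes, whose products carry the domain of RAB GTPase-activating proteins, comprised 7 rises, 5 falls and 14 that did not pass. The shares were 26.9% and 19.2%, where 21.7% of all measured genes rose and 20.8% fell. TBC1D8 rose most, with log2 levels of 9.14, 9.26, 9.15 and 9.43 in the control pools and 10.44, 10.37, 10.67 and 10.79 in the adenosine pools. The groups did not overlap, at 1.33 ± 0.17 and 2.51-fold (adjusted p = 0.00107). A dimmer TBC1D8 probe had -0.02 ± 0.03, and the mean over both was 0.65. TBC1D7, a subunit of the TSC complex that restrains mTORC1, had log2 levels of 8.71, 8.78, 8.10 and 8.38 in the control pools and 9.51, 9.62, 9.62 and 9.64 in the adenosine pools. The adenosine pools were nearly equal and above all control pools, with 1.10 ± 0.35 and 2.15-fold (adjusted p = 0.00712).

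TBC1D23, which captures endosome-derived vesicles at the Golgi, fell most in the TBC1D family. It had log2 levels of 7.65, 8.17, 7.84 and 8.40 in the control pools and 6.55, 6.68, 6.58 and 6.63 in the adenosine pools. The adenosine pools lay close together and below all control pools, with -1.40 ± 0.29 and 2.65-fold (adjusted p = 0.00273), and -2.30 with no offset in the background correction. TBC1D15, an activating protein for RAB7 on mitochondria and lysosomes, had log2 levels of 8.58, 9.18, 8.44 and 8.76 in the control pools and 7.66, 7.43, 7.70 and 7.39 in the adenosine pools. All adenosine pools lay below all control pools, with pairs 2 and 4 steeper (-1.20 ± 0.46, 2.29-fold, adjusted p = 0.0119). It did not pass without pair 4 (adjusted p = 0.0653).

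The other TBC1D genes that passed moved by less than 2-fold. TBC1D9B rose by 0.60 ± 0.20, without passing under median centring, and TBC1D13, an activating protein for RAB35, by 0.46 ± 0.20. TBC1D19 rose by 0.68 ± 0.32, TBC1D5, a RAB7 regulator bound to retromer, by 0.17 ± 0.06, and TBC1D16 by 0.10 ± 0.03. TBC1D20, which switches off RAB1 and RAB18, fell by 0.51 ± 0.17, TBC1D17 fell by 0.32 ± 0.12 and TBC1D8B fell by 0.26 ± 0.05. TBC1D8B exceeded the detection limit in 7 of 8 control and 1 of 8 adenosine channel values, so it was kept through its control pools alone and the size of its fall is not fixed by these arrays. TBC1D19 did not pass with median centring (0.50, adjusted p = 0.0594). Without pair 4 none of TBC1D5, TBC1D13, TBC1D16, TBC1D17 and TBC1D19 passed. The 14 that did not pass (TBC1D1, TBC1D2B, TBC1D4, TBC1D9, TBC1D10A, TBC1D10B, TBC1D10C, TBC1D12, TBC1D14, TBC1D21, TBC1D22B, TBC1D24, TBC1D25 and TBC1D30) ranged from -0.51 for TBC1D10B to 0.34 for TBC1D4.

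Close relatives within the RAB family did not always move alike. Of 12 groups with the same number and at least 2 measured letters, a grouping made after values were seen, 3 held a rise and a fall: RAB1A and RAB1B, RAB5A and RAB5B, and RAB11A and RAB11B. In RAB1 and RAB5 the rise was small (0.21 and 0.23) beside falls of more than 2-fold, and neither RAB1B nor RAB5B passed with median centring, whereas RAB11A and RAB11B both passed in all 16 alternatives. Both measured members of the RAB2 and RAB4 groups moved the same way. In 4 groups (RAB7, RAB8, RAB9 and RAB40) 1 member passed, and in 3 (RAB3, RAB6 and RAB27) none did. Whether a probe also binds the transcript of a relative was not tested.

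Of the 148 kept probes 69 passed, 34 higher and 35 lower, which is 46.6% against 37.2% of all kept probes (18.7% higher and 18.5% lower). For 33 genes with 2 or more kept probes the probes could be set against each other. The brightest probe passed for 19 of them, and for 9 of these a dimmer probe passed in the same direction. No gene had probes that passed in opposite directions (0 of 33). Of 28 dimmer probes of those 19 genes, 24 had the sign of the brightest and 27 a smaller ratio. The mean over kept probes was smaller than the brightest by more than 1.5 times for 14 of the 19: RAB7L1, RAB8A, RAB10, RAB15, RAB28, RAB31, RAB35, RAB39B, RAB3GAP2, RABGAP1L, RABL2B, RABL4, RABL5 and TBC1D8. Of these RAB8A no longer passed (-0.06, adjusted p = 0.191).

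RABGAP1L and RAB7L1 show the extremes. The brightest RABGAP1L probe, at a log2 brightness of 11.3, had -2.36, and its dimmer probes, at 6.58, 6.55 and 6.23, had -0.51, -0.88 and -0.12, of which the first 2 passed. The brightest RAB7L1 probe, at 8.87, had 1.65, and the others, at 6.50 and 6.27, had 0.01 and 0.06 and did not pass. TBC1D19 was even, with 3 probes at 0.68, 0.63 and 0.72, all of which passed. For 8 genes only a dimmer probe passed: RAB6A, RAB6B, RAB8B, RAB14, RAB27A, TBC1D1, TBC1D9 and TBC1D14. The largest of these were a TBC1D9 probe at -0.92 ± 0.31, a RAB6B probe at 0.75 ± 0.26 and a RAB8B probe at -0.71 ± 0.18. The files do not say which part of a transcript each probe covers.

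**Figure D4:**
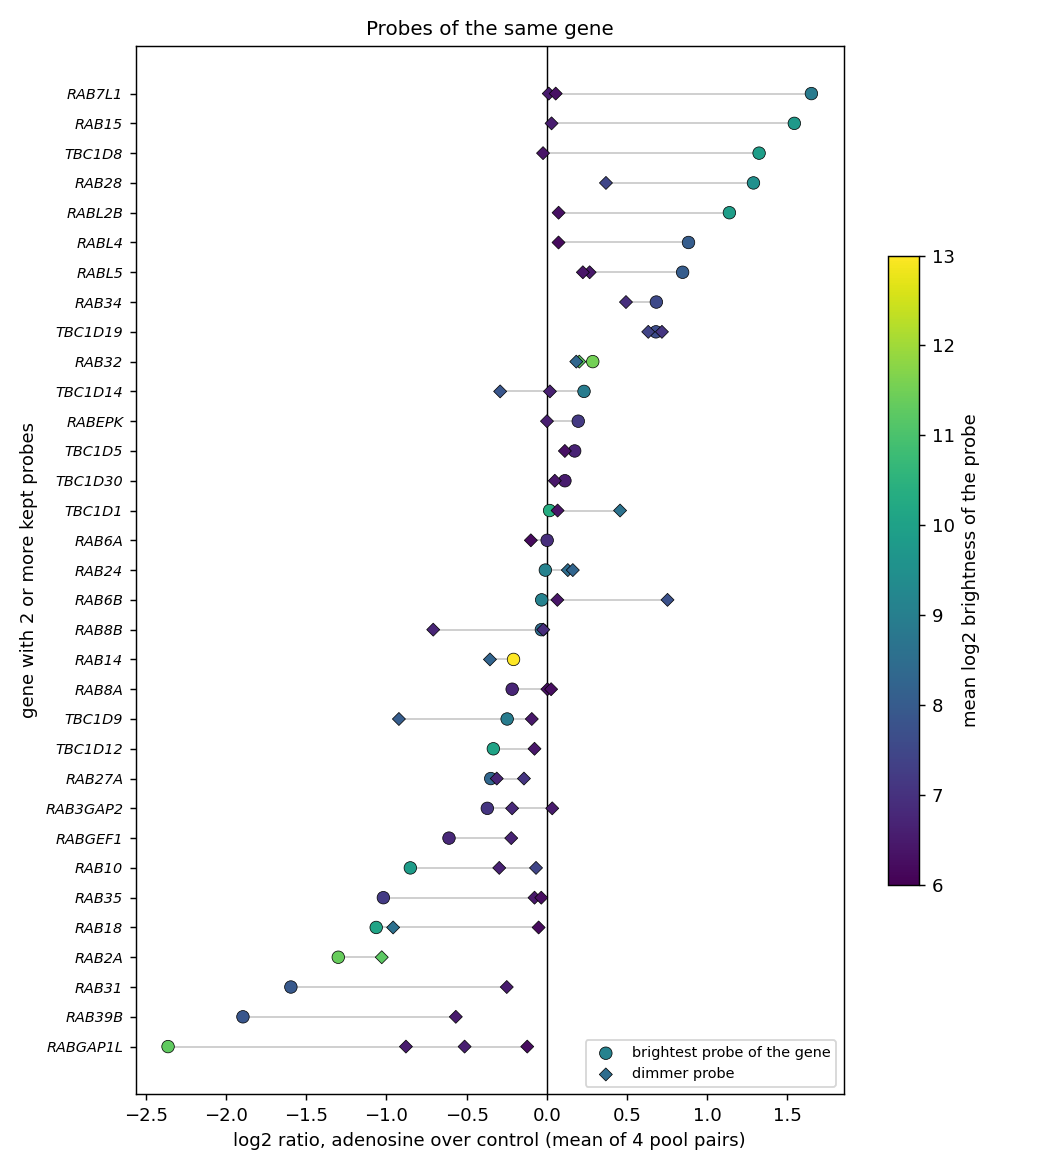
Mean log2 ratio (horizontal axis, n = 4 pool pairs) of every kept probe of the 33 genes with 2 or more, with a circle for the brightest probe and diamonds for dimmer ones, coloured by mean log2 brightness. Of 28 dimmer probes of genes whose brightest probe passed 27 had a smaller ratio than it, as for RAB7L1 at 1.65 against 0.01 and 0.06, while those of TBC1D19 lie together.

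The share of genes that passed varied with probe brightness. Of 35 genes with a log2 brightness under 7, 28.6% passed, against 21.1% of all genes in that range. Between 7 and 9 it was 69.7% of 33 against 57.8%, and at 9 and over 51.7% of 29 against 64.3%. All 8 channel values of both groups exceeded the detection limit for 70 of the 97 genes.

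Slides were assigned here by dye orientation, 1 orientation to each, so dye and slide cannot be told apart. The ratio differed between orientations for 56 of the 97 genes (57.7%, limma on the 4 pair differences, adjusted p below 0.05), against 57.3% of all measured genes. RAB7L1 had 1.57 with adenosine in Cy5 and 1.74 with it in Cy3, and RABGAP1L -2.41 and -2.32. All but 1 of the 48 genes that passed had the same sign in both orientations. The exception was TBC1D16, at -0.15 and 0.35. Among genes that did not pass, RAB12 had -0.13 and 0.54, and RAB8B had 0.21 and -0.28.

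**Figure D5:**
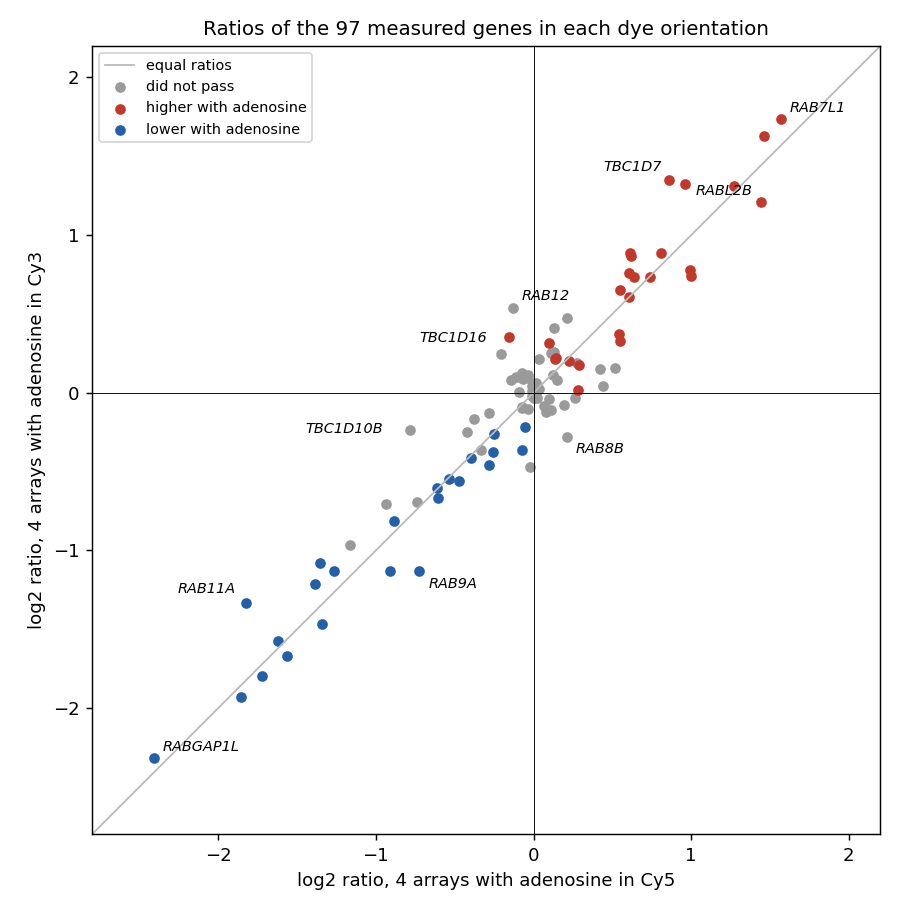
Log2 ratio of adenosine over control from the 4 arrays with adenosine in Cy5 (horizontal axis) and from the 4 with adenosine in Cy3 (vertical axis) for the 97 measured genes, coloured by result, with a grey line of equal ratios. RABGAP1L and RAB7L1 lie near the line at either end. TBC1D16, at -0.15 and 0.35, is the coloured point on the other side of 0.

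Genes of the RAB cycle that the choice by symbol left out were described from a list of 106, of which 90 were on the array and 74 measured. Of these 9 rose, 23 fell and 42 did not pass (43.2% passed, against 42.5% of all genes), with a median of -0.09. With median centring the list had 3 rises and 29 falls. With that centring 42.8% of all measured genes passed, and their split into rises and falls is not given here. Without pair 4 the list had 4 rises and 16 falls, and in the fit that ignores which pools were paired 2 and 14. Without pair 4 and in that fit the share of all genes that passed was also lower, as given above. Falls made up 31.1% of the list and rises 12.2%, against 20.8% and 21.7% of all measured genes. Effectors held most of the falls, with 14 falls and 2 rises among 32 (43.8% and 6.25%). RILPL1, an effector of RAB8 and RAB10 that has a role at cilia, had pair ratios of -1.50, -1.76, -1.67 and -1.40 (-1.58 ± 0.16, 2.99-fold lower, adjusted p = 0.000766). MYO5A, the myosin that binds RAB11 and RAB27 carriers, had -0.96 ± 0.18, and EHBP1L1 and WDR44, an effector of RAB11, had -0.40 ± 0.05 and -0.32 ± 0.05.

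The exchange factors outside the family symbols held falls and rises. Among 13 measured DENN domain exchange factors 3 fell (23.1%) and 1 rose (7.69%), where 20.8% of all measured genes fell and 21.7% rose. DENND3, an exchange factor for RAB12, had pair ratios of -1.13, -1.19, -1.61 and -1.11 (-1.26 ± 0.23, 2.4-fold lower, adjusted p = 0.00214), and DENND5A and DENND5B, which act on RAB39, had -1.06 ± 0.26 and -0.96 ± 0.23. DENND4B, an exchange factor for RAB10, rose (0.73 ± 0.17, adjusted p = 0.00369). Of 8 other exchange factors 3 fell (37.5%) and 1 rose (12.5%). MON1B, part of the exchange factor for RAB7, had -0.76 ± 0.12, GAPVD1, an exchange factor for RAB5, had -0.69 ± 0.15, and HPS4, of the exchange factor for RAB32 and RAB38, had -0.43 ± 0.02. ANKRD27, which loads RAB21, rose (0.44 ± 0.24).

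Among 14 genes of prenylation and membrane delivery 4 rose (28.6%) and 2 fell (14.3%), where 21.7% of all measured genes rose and 20.8% fell. GDI2, a dissociation inhibitor that extracts RABs from membranes, rose with pair ratios of 0.73, 0.75, 0.53 and 0.83 (0.71 ± 0.13, adjusted p = 0.00229), and YIPF3 of the Golgi rose by 0.59 ± 0.13. Of the escort proteins of RAB prenylation CHM had 0.26 ± 0.07 and CHML -0.66 ± 0.21, and both passed. The dye orientations of CHM had opposite signs, -0.64 with adenosine in Cy5 and 1.15 in Cy3. Of 7 other TBC domain genes EVI5L rose and EVI5 fell (0.20 ± 0.09 and -0.15 ± 0.09), and SGSM1 and GRTP1 did not pass at -0.14 and 0.03.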

How the data were processed

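Per the labels' protocols, cumulus RNA went through T7 amplification and chemical labelling with Cy3 or Cy5. The deposited scanner files hold the mean foreground intensity and median local background intensity of 45220 spots on each of 8 arrays, per the file headers, without background subtraction or normalization. The authors also deposited a table of normalized log2 ratios. Neither their normalization nor the quantifying software is named in the sources used here. The authors' table was set against the log2 ratios computed here, turned to adenosine over control, for kept probes with a log2 brightness above 9. Its slope was 0.978 to 1.05 on each array, so it gives adenosine over control. Its column medians were 0.00566 to 0.0524.

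With limma 3.58.1 in R 4.3.3, normexp (offset 50) removed background, an offset that pulls ratios of dim probes towards 0, and loess was run within arrays, giving weight 0 to 1426 control and empty spots. Ratios were turned to adenosine over control. Same-numbered arrays with exchanged dyes hold the same pools per the labels and were averaged to 1 replicate, giving 4 pairs. Across probes, same-numbered arrays deviated together (correlations of 0.784 to 0.933), and each of the 8 arrays was closest to its namesake. Kept probes had a foreground above the mean plus 2 SD of the 153 negative controls, in 1 of the groups at least, on both arrays of 3 or more pools. The 128 probe spots marked as ignored in the files were left out on that array, none of them (0) for the genes described. lmFit and eBayes tested pair means against 0, and p-values were adjusted by the Benjamini-Hochberg method over all kept probes, with a threshold of 0.05. Levels are single-channel values after Aquantile normalization, averaged over the arrays of a pool, and compare pools within a probe only. Brightness is the mean log2 level over all arrays and channels.

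Gene names came from the platform's annotation: 21790 probes had 1 symbol, 22004 none and 0 several, and 98 of the 102 symbols were found in the RefSeq gene table. Genes given with full values are the 12 largest rises and 12 largest falls that passed with 1 sign in all pairs, the 4 brightest, the nearest to the threshold on either side and any with probes passing in opposite directions (0). Of the RAB cycle list, the 4 genes per sublist with the smallest p are named. The members, roles, lists and markers were chosen with earlier results of these data known. Alternatives covered background correction, centring, the detection filter, leaving out each pair, each dye orientation alone and pair 3 from 1 array. They also covered the fit without pairs or with arrays as units and the pair as a block, the authors' table, and the mean over a gene's probes.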

Additional observations from a re-analysis of the deposited data

Results flagged for a closer look

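RAB11A, the GTPase of the recycling endosome, had a log2 ratio of -1.92 in pair 2, which lay far from the other 3 pairs (-1.49, -1.48 and -1.43) for the spread among them. Its adenosine level in pair 2 was 10.93, beside 10.89 to 10.96 in the other adenosine pools, and its control level was 12.84, beside 12.37 to 12.44 in the other control pools. A value this far out arises by chance in about 1 of 20 groups of 4, and 27 genes were examined, of which RAB11A alone was so far out. RAB11A passed without pair 2 as with it.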

How the results depend on the processing

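Across 16 alternatives the count of genes that passed ranged from 34 to 56, apart from 30 without pair 4 (30 to 43 when 1 pair was left out), against 48. For probes it was 38 without pair 4 (38 to 58), against 69, and for the RAB cycle list 20 (20 to 29), against 32. Leaving out a pair also leaves fewer pairs for the test. Of the 48 genes 21 passed with the same sign in every alternative that gave a value, 9 higher and 12 lower. Over the alternatives 32 of the 97 genes took both signs, 31 of which had not passed, and the other was TBC1D16, at -0.15 on the slide with adenosine in Cy5. RAB32 had -0.043 with median centring. With its sign turned a gene passed in 4 cases: TBC1D16, RAB22A with median centring (-0.23, adjusted p = 0.0454), RAB6B on the mean of probes (0.26, adjusted p = 0.00943) and RAB25 with adenosine in Cy3 (0.10). Median centring gave 18 rises and 33 falls, where 52.1% of calls in the reported fit were rises and 35.3% here, with 8 of the 48 (RAB1B, RAB5B, RAB34, RAB38, RABIF, RABL3, TBC1D9B and TBC1D19) not passing, and the causes were not tested. With the pair as a block and arrays as units (consensus correlation 0.722) 55 genes passed. With no replicate block 34 genes, 49 probes and 16 genes of the RAB cycle list passed, and RAB1B, RAB2B, RAB4B, RAB5B, RAB9A, RAB10, RAB20, RAB26, RAB38, RAB3GAP1, RABGEF1, RABIF, RABL3, TBC1D5, TBC1D16 and TBC1D20 did not. Signal over background limits the dim probes: with no offset in the background correction TBC1D8B went from -0.26 to -0.94, and under a stricter detection filter 73 of the 97 genes were tested.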
